A study of Homo sapiens with 18 samples.

Results

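The 38 genes described here encode proteins of the cornified envelope and of late squamous differentiation. They were picked by symbol from a table of 19901 genes and cover envelope precursors, transglutaminases, lipid barrier genes and genes of mucosal squamous epithelium, with keratins, S100 proteins and kallikreins left out. mRNA was sequenced in 3 human head and neck squamous cell carcinoma (HNSCC) lines, with 3 untreated control libraries per line and 3 from cells that received hepatocyte growth factor (HGF, the ligand of the receptor tyrosine kinase Met) at 50 ng/ml, 18 libraries in all. Treatment lasted 16 h by the sample records and by the study's methods for sequencing, whereas the series record gives 48 h. Detroit 562 was established from a metastasis of a pharyngeal carcinoma, FaDu from a carcinoma of the hypopharynx and SCC-9 from one of the tongue. Detroit 562 and FaDu grew in MEM-α, whereas SCC-9 grew in DMEM F12 with HEPES and hydrocortisone, so line and medium cannot be told apart. Each line is a single established line and stands for itself alone.

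When keratinocytes of stratified epithelia leave the basal layer, they produce precursor proteins such as involucrin, loricrin, filaggrin and the small proline-rich (SPRR) proteins. Transglutaminases cross-link these precursors beneath the plasma membrane into the insoluble cornified envelope, while lipid-handling enzymes and transporters build the lipid layer around it and protease inhibitors control shedding. Oral and pharyngeal mucosa uses SPRR proteins, cornulin and involucrin in particular, and squamous carcinoma lines often keep part of the programme.

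Of the 38 members, 29 had enough counts to be tested. The 9 others were LOR (loricrin), CRNN (cornulin), RPTN (repetin), SPRR2E, SPRR2F, LCE3D, LCE3E, TGM3 and MAL, and none of them exceeded 9 counts in any library. Total counts per library ranged from 35304770 to 44003970. Levels are given as normalized counts, that is, counts scaled by TMM factors to the mean effective library size of 40100407. A gene was called regulated at a Benjamini-Hochberg adjusted p below 0.1 in edgeR's quasi-likelihood test and an absolute log2 fold change of 0.4 or more, over all 15475 genes tested. The libraries of a line were also paired by replicate number in a second model, called the blocked fit, whose value is given where it changes a call. The repeats of the experiment are not described further, so p-values measure the spread between these libraries. In bulk RNA, fewer differentiated cells and less RNA per cell cannot be told apart.

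Of the members, 14 lie in the epidermal differentiation complex on chromosome 1, between positions 152153595 and 153262122 of GRCh38. A RefSeq promoter window was found for 32 of the 38 members, and none for SPRR2D, SPRR2E, TGM1, CSTA, CST6 and RHCG. The 250 bases before each start were searched on both strands for TGANTCA, a letter pattern bound by AP-1 factors, which control many envelope genes. The pattern reads the same on both strands. It was present in 17 of the 32 members with a window (53.1%), and in 6.57% of all 35116 RefSeq windows or 8.06% of all 27305 gene symbols. It stood in 3 of the 7 members with a window that fell upon HGF in Detroit 562, in 10 of the 17 that were not called and in 4 of the 8 that were not tested. TATAAA, the TATA box letters, was present anywhere in the 250 bases in 13 of the 32 (40.6%), and in 10.7% of all windows or 13% of all gene symbols. AACCNGTT, a pattern of the grainyhead-like factors GRHL, was present in 2 of the 32 (6.25%), and in 1.49% of all windows or 1.85% of all gene symbols.

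The upstream sequences of 3 members that fell upon HGF in Detroit 562 (IVL, PSAPL1, SERPINB13) and of 3 that stood high in that line and were not called (SPRR1B, SPRR3, SCEL) are shown because both groups carry the AP-1 letters, which are in capitals. They are RefSeq sequences of GRCh38.p14, 5′ to 3′ on the strand of the gene, with annotated exons trimmed off. IVL is chr1:152908296-152908544 (plus strand), PSAPL1 chr4:7434974-7435180 (minus strand), SERPINB13 chr18:63587128-63587299 (plus strand), SPRR1B chr1:153030953-153031201, SPRR3 chr1:153001499-153001746 and SCEL chr13:77535456-77535673 (all plus strand). The SERPINB13 stretch lies between the first exons of different transcripts of that gene, and the others lie before the gene, IVL also inside a long non-coding RNA gene and PSAPL1 inside SORCS2, both on the opposite strand.
IVL: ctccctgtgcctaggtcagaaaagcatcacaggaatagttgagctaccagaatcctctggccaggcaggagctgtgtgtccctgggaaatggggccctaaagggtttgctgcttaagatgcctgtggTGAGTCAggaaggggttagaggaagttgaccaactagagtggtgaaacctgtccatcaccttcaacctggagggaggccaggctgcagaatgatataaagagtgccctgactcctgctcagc
PSAPL1: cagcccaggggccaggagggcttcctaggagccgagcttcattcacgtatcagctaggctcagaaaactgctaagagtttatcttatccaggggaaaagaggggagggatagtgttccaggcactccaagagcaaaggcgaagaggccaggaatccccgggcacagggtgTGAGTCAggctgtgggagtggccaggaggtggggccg
SERPINB13: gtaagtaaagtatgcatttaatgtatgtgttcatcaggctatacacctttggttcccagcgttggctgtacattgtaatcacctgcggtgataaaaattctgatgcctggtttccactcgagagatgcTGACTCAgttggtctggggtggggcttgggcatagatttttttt
SPRR1B: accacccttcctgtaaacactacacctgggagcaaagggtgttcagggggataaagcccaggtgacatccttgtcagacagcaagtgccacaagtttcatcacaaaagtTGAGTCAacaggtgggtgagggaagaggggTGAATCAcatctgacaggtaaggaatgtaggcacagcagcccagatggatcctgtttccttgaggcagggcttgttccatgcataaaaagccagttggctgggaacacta
SPRR3: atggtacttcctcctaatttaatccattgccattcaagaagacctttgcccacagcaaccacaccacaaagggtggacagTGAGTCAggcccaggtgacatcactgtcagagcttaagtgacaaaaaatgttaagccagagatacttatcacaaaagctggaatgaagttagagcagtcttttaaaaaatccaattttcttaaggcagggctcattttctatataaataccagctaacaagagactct
SCEL: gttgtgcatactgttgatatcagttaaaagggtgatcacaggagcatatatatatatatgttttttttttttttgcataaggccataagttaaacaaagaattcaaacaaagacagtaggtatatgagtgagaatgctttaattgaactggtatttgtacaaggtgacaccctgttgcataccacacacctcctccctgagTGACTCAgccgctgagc

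**Figure D1:**
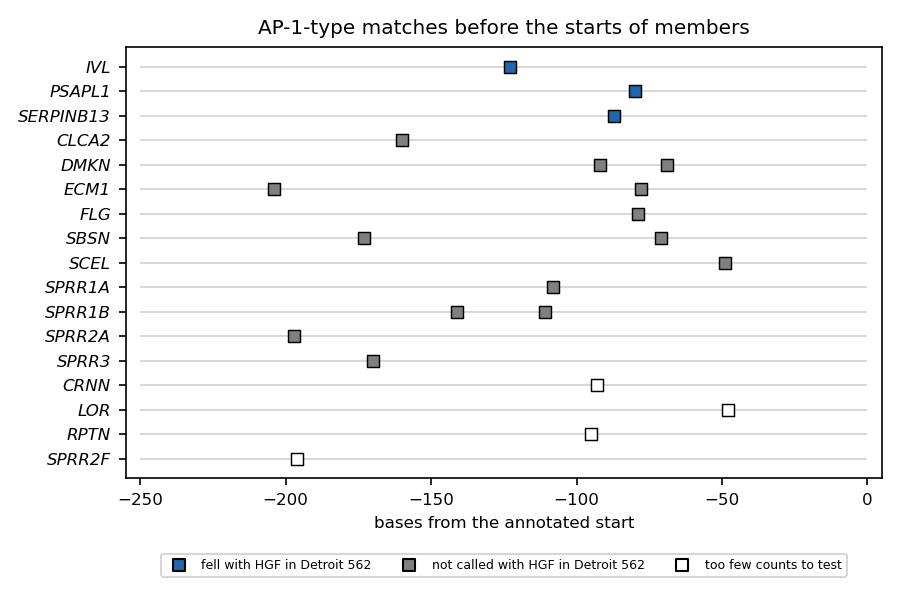
Positions of TGANTCA matches in the 250 bases before the annotated RefSeq start (x axis, bases from the start) of the 17 members with a match, where a square is a match and the colour gives the HGF response in Detroit 562. The 3 members that fell have 1 match each between -123 and -80, and matches of members that were not called span -204 to -49. For DMKN the squares belong to different starts.

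In Detroit 562, HGF lowered 8 of the 29 tested members and raised 1. TGM1, SERPINB13 and PSAPL1 fell most among the members above 100 normalized counts in some control library, by 3.62-, 5.40- and 13.9-fold. PSAPL1, counted among the 8, had enough counts to be tested only through the control group, so its fall is a description. Involucrin (IVL) fell 2.76-fold, while the tested SPRR genes and sciellin (SCEL) were not called. The share called among all genes tested was 17.9%, with 6.16% up and 11.7% down. The control and HGF libraries of all 9 called members did not overlap, as a call favours. Of the tested members that were not called, SPRR2D, CALML5, LYPD3 and DMKN did not overlap either. Among all genes tested, called or not, 38.1% did not overlap, which is no like comparison for members chosen by their call. The median log2 fold change of the tested members was -0.24 (-0.29 without FLG, which had 1 count in the 6 libraries), against -0.01 over all genes tested, and 17 members had a lower and 12 a higher estimate. In the blocked fit 10 members fell and 3 rose, where 21.5% of all genes tested were called, 7.13% up and 14.4% down.

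Among the envelope precursors, 1 of 9 tested fell, near the 11.7% called down over all genes tested. IVL, which encodes the scaffold protein of the early envelope, had 884, 873 and 512 normalized counts in control libraries 1, 2 and 3 and 299.6, 347 and 172 in the HGF libraries (log2 fold change -1.47 ± 0.31 (SE), adjusted p = 0.0046). The groups did not overlap, and replicate 3 was lowest in both. SCEL, whose product sciellin lies beneath the plasma membrane of cornifying cells, had 4121, 4310.4 and 5547 normalized counts in controls and 3900, 4734 and 7631 with HGF (log2 fold change 0.22, 95% confidence interval -0.16 to 0.60, adjusted p = 0.402). Its groups overlapped, and it had the highest mean normalized count of the members in this line.

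The SPRR genes encode short proline-rich cross-bridges of the envelope. SPRR1B had 815, 999.7 and 1297 normalized counts in controls and 1097, 1295 and 1300.5 with HGF (log2 fold change 0.25, interval -0.31 to 0.81, adjusted p = 0.524). SPRR3 had 480.1, 676 and 803 in controls and 491, 676 and 782 with HGF (log2 fold change -0.01, interval -0.51 to 0.50, adjusted p = 0.987). The lower bounds of both intervals lie above the estimate for IVL. SPRR1A had 114, 114 and 154 in controls and 161, 147 and 165 with HGF (log2 fold change 0.30, interval -0.12 to 0.73, adjusted p = 0.285). SPRR2A had 27.4, 26.1 and 25.9 in controls and 45.6, 44.4 and 26.8 with HGF (log2 fold change 0.56 ± 0.34 (SE), adjusted p = 0.233, and 0.55 with adjusted p = 0.0864 in the blocked fit). Only libraries 1 and 2 of SPRR2A separated, and 25.2% of its 75-base stretches also occur in transcripts of other genes, mostly SPRR2B, so its reads may be shared. The remaining tested precursors were SPRR2D, CNFN (cornifelin) and FLG (filaggrin), none of which passed the test, and FLG had 0 counts in every control library.

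TGM1 encodes the membrane-bound transglutaminase that cross-links the envelope. It had 906, 768 and 419 normalized counts in controls and 200.4, 217 and 159.8 with HGF (log2 fold change -1.86 ± 0.37 (SE), adjusted p = 0.00322). Every HGF library lay below every control library. TGM5, the other transglutaminase tested, had 4.73, 17.4 and 7.56 in controls and 5.95, 7.97 and 8.54 with HGF, and its groups overlapped (adjusted p = 0.615).

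All 3 lipid barrier genes were called down, where 11.7% of all genes tested were. Of these 3, PSAPL1 is a description and the ABCA12 call was unstable, as given below. PSAPL1, a relative of prosaposin, from which activators of sphingolipid breakdown are cut, had 155, 118 and 22.7 normalized counts in controls and 7.94, 12.5 and 0 with HGF (log2 fold change -3.80 ± 0.80 (SE), adjusted p = 0.00303). PSAPL1 would not have passed the count filter without the control group, so its call is no independent support. Its control libraries differed 6.84-fold among themselves, and the highest HGF library was still below the lowest control. CERS3, the ceramide synthase for very long acyl chains, had 312, 289.7 and 150.1 in controls and 137, 143 and 67.1 with HGF (log2 fold change -1.11 ± 0.30 (SE), adjusted p = 0.0154). ABCA12, the lipid transporter of lamellar granules, had 244, 241 and 250.5 in controls and 139.9, 181 and 152.5 with HGF (log2 fold change -0.64 ± 0.27 (SE), adjusted p = 0.0940). The groups of both genes were apart. The ABCA12 call was lost without filtering (adjusted p = 0.104) and when 5 of the 6 libraries were left out in turn, all but HGF library 2 (adjusted p from 0.139 to 0.208), and it passed in the blocked fit (adjusted p = 0.00113).

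The protease inhibitors moved in both directions, with 2 of 6 falling and 1 rising. Of all genes tested, 11.7% were called down and 6.16% up, and 6 genes are too few to set against these shares. SERPINB13, a serpin that inhibits cathepsins, had 1284, 935 and 383 normalized counts in controls and 214, 217 and 46.4 with HGF (log2 fold change -2.43 ± 0.63 (SE), adjusted p = 0.0133). A2ML1, an inhibitor of the alpha-2-macroglobulin family, had only 11.3, 7.62 and 9.72 in controls and 2.98, 3.41 and 2.44 with HGF (log2 fold change -1.66 ± 0.62 (SE), adjusted p = 0.0401). CST6, the cystatin that inhibits legumain and cathepsins, rose from 1871, 2203 and 2319 to 3976, 3493 and 3432 (log2 fold change 0.77 ± 0.16 (SE), adjusted p = 0.00336). The groups of these 3 genes did not overlap. The A2ML1 call was lost without control library 1 (adjusted p = 0.141) and without HGF library 3 (adjusted p = 0.119), and both the A2ML1 and the ABCA12 call were lost when replicate 3 was left out of every group (adjusted p = 0.107 and 0.111), an alternative added after the data were seen. CSTA, cystatin A, had 1266, 1333 and 759 in controls and 902, 985 and 589 with HGF (log2 fold change -0.44 ± 0.28 (SE), adjusted p = 0.271, and -0.44 with adjusted p = 5.14e-05 in the blocked fit). Its groups overlapped through control library 3, and HGF was lower in 3 of 3 pairs. SERPINB3 and SERPINB4, which share 10.4% and 10.0% of their 75-base stretches, stayed below 18 normalized counts in every Detroit 562 library and did not pass the test.

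Of the membrane proteins, 1 of 4 tested fell, where 11.7% of all genes tested were called down. CLCA4, a chloride channel regulator of mucosal epithelium, had 499.9, 454 and 434 normalized counts in controls and 172, 239 and 185 with HGF (log2 fold change -1.22 ± 0.19 (SE), adjusted p = 0.00102). It showed little spread within the groups and the smallest adjusted p of all members in this comparison. Its relative CLCA2 had 148, 117 and 45.3 in controls and 81.3, 67.2 and 20.7 with HGF (log2 fold change -0.86 ± 0.54 (SE), adjusted p = 0.255, and -0.88 with adjusted p = 0.000236 in the blocked fit). CLCA2 was lower with HGF in 3 of 3 pairs although the groups overlapped. LYPD3, a cell surface protein of suprabasal cells, had 534, 502 and 486 in controls and 419, 393 and 475 with HGF, a difference below the minimum fold change in either fit. RHCG, an ammonium transporter, ranged from 11.9 to 22.7 in controls and from 7.32 to 21.8 with HGF.

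The secreted barrier proteins had positive estimates and none was called, where 17.9% of all genes tested were. ECM1, extracellular matrix protein 1, had 209.8, 227 and 447 normalized counts in controls and 349, 396 and 679.5 with HGF (log2 fold change 0.69 ± 0.35 (SE), adjusted p = 0.156, and 0.71 with adjusted p = 1.63e-05 in the blocked fit). Replicate 3 was highest in both groups, opposite to its place in IVL, TGM1 and CERS3. DMKN, dermokine, had 2288, 2529 and 2943 in controls and 3276, 2988 and 3460 with HGF, with a log2 fold change of 0.33 that stayed under the minimum of 0.4 at an adjusted p of 0.0521. SBSN, suprabasin, had at most 2 counts per library. The calmodulin-like genes CALML3 and CALML5 did not pass the test.

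**Figure D2:**
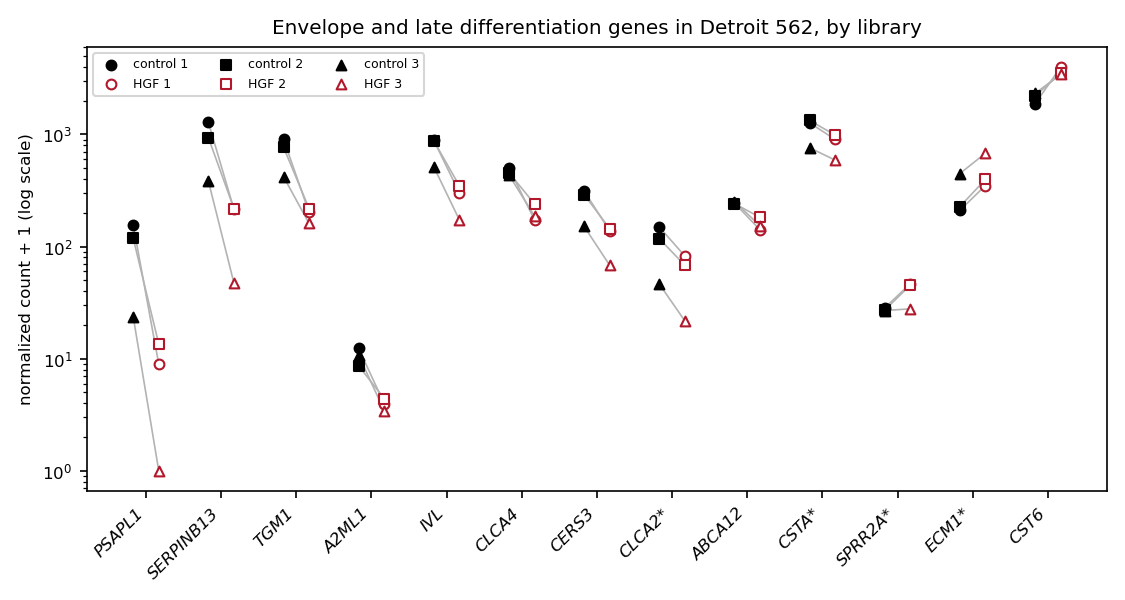
Normalized count plus 1 on a log axis in each of the 6 Detroit 562 libraries for the 9 members called and, marked by an asterisk, the 4 called in the blocked fit alone, with filled symbols for controls, open symbols for HGF and a line joining libraries of the same number. Every line of the 10 members from PSAPL1 to CSTA runs down and every line of SPRR2A, ECM1 and CST6 runs up. Replicate 3 (triangles) lies lowest in both groups for PSAPL1, SERPINB13, TGM1, IVL, CERS3, CLCA2, CSTA and, by a small margin in controls, SPRR2A.

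In FaDu, 0 of the 29 tested members were called without the block, and 3 had an unadjusted p under 0.05. Of all genes tested, edgeR called 4 (0.0258%) and 8.06% reached an unadjusted p under 0.05. DESeq2 called 0 members with or without its fold change prior. The median log2 fold change of the members was -0.30 (-0.31 with genes at 0 counts in a group set to their bound or left out), against 0 over all genes tested. In the blocked fit 5 members fell and 3 rose, where 5.6% of all genes tested were called, 2% up and 3.6% down.

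TGM1 in FaDu had 1162, 1375 and 593 normalized counts in controls and 691, 996 and 363 with HGF (log2 fold change -0.61, adjusted p = 0.641, and -0.64 with adjusted p = 0.000866 in the blocked fit). The groups overlapped because replicate 3 was lowest in each, and HGF was lower in 3 of 3 pairs. RHCG had 118, 129.9 and 61.2 in controls and 78.1, 77.6 and 39.8 with HGF (blocked log2 fold change -0.66, adjusted p = 0.0236). SERPINB13 had 532, 1497 and 611 in controls and 411, 1264 and 337.5 with HGF (blocked log2 fold change -0.47, adjusted p = 0.0366). In SERPINB13 library 2 of either group stood above the others.

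ECM1 in FaDu had 54.3, 66.5 and 105 normalized counts in controls and 72.5, 90.7 and 190.1 with HGF (blocked log2 fold change 0.62, adjusted p = 0.00486). CST6 had 114, 160.1 and 215 in controls and 186, 222 and 241 with HGF (blocked log2 fold change 0.42, adjusted p = 0.0537). Both were higher in 3 of 3 pairs with overlapping groups. FLG, a giant precursor cut into filaggrin monomers, had 38.1, 57.4 and 5.65 in controls and 13.0, 29.2 and 5.82 with HGF (blocked log2 fold change -1.06, adjusted p = 0.0956), and was lower in only 2 of 3 pairs. FLG would not have passed the count filter without the FaDu control group, or without the FaDu HGF group. Its fall, counted among the blocked calls in FaDu, is thus a description. The blocked calls of SPRR2A and SPRR2D rest on 0, 0 and 0 counts against 0, 5 and 1, and on 1, 4 and 1 against 0, 0 and 0, so no fold is given for them. CSTA had a blocked log2 fold change of -0.32 in FaDu, under the minimum fold change.

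In SCC-9, 0 of the 29 tested members were called by edgeR without or with the block, or by DESeq2, and 2 had an unadjusted p under 0.05. The share called among all genes tested was 0% without and 1.97% with the block, and 4.14% had an unadjusted p under 0.05. The median log2 fold change of the members was -0.04 against 0 over all genes tested. SPRR2D, which had 20.1, 28.6 and 21.5 normalized counts in controls and 40.2, 37.9 and 40.4 with HGF, had an unadjusted p of 0.0110 and an adjusted p of 1. The groups did not overlap, which held for 17.4% of all genes tested in this line. The other was CALML5, with 0.959, 3.81 and 13.3 in controls and 1.92, 0.947 and 0 with HGF. IVL had 412, 494 and 707 in controls and 427, 524 and 567 with HGF (log2 fold change -0.09, interval -0.73 to 0.56), and TGM1 had 119.9, 198 and 172 in controls and 115, 166 and 163 with HGF (log2 fold change -0.14, interval -0.96 to 0.68).

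**Figure D3:**
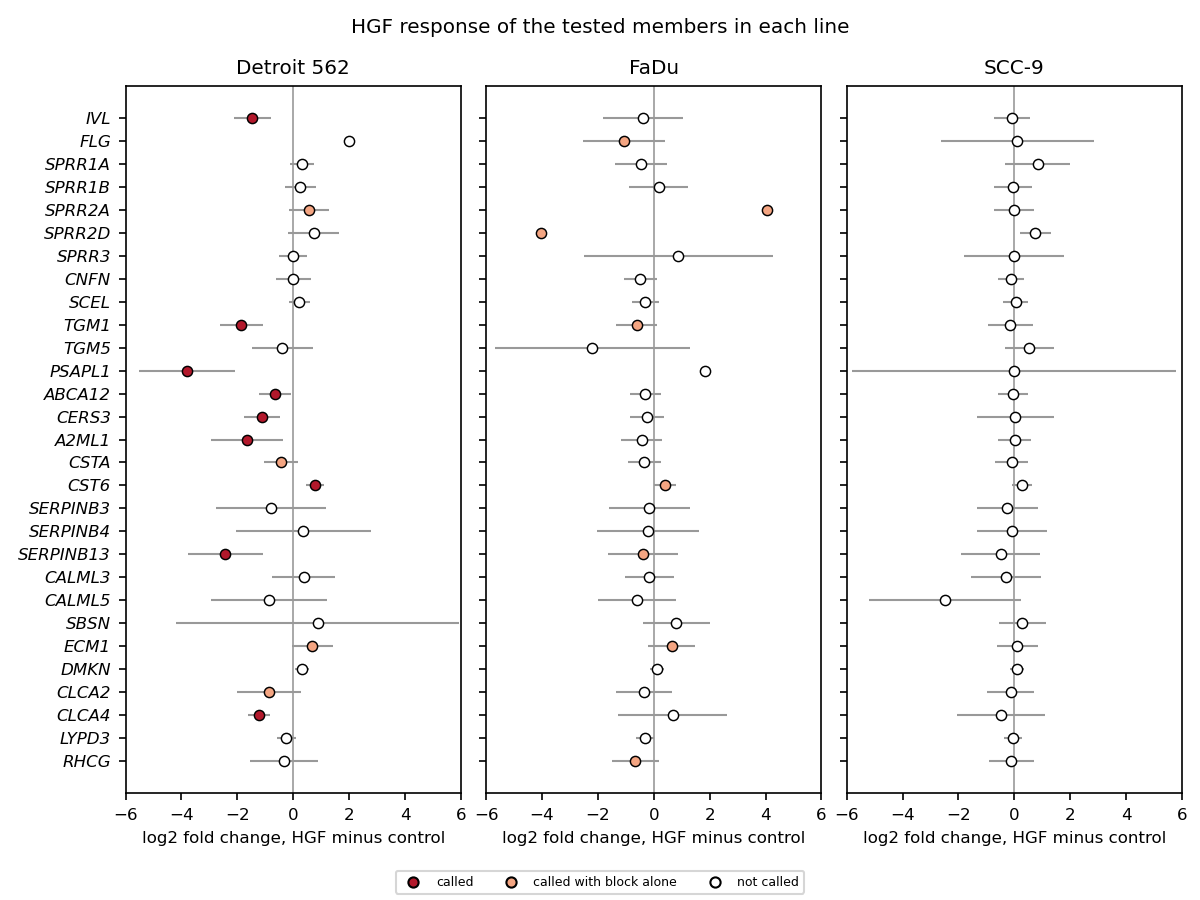
Log2 fold change (x axis, HGF minus control) of the 29 tested members in Detroit 562, FaDu and SCC-9, with points for the fit without the block, bars for 95% confidence intervals, dark red for members called and light red for members called in the blocked fit alone. Red points stand in Detroit 562, where 8 lie to the left of 0, and in FaDu, where all 8 are light. In Detroit 562 a further 4 are light. Points without a bar belong to genes with 0 counts in every library of a group.

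Whether the response differed between lines was tested by the interaction of line and treatment at an adjusted p below 0.1. Without the block no member passed in edgeR for Detroit 562 against FaDu, Detroit 562 against SCC-9 or FaDu against SCC-9, where 0.239%, 0.924% and 0% of all genes tested passed, and 4, 4 and 3 members had an unadjusted p under 0.05. DESeq2 gave 1, 2 and 0 members with its fold change prior and 0, 1 and 0 without. In the blocked fit 5, 11 and 0 members passed, where 19.1%, 26.9% and 1.32% of all genes tested passed. These 3 comparisons share lines and are not independent of each other.

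Against SCC-9, the blocked difference of the responses was -1.41 for IVL (adjusted p = 0.000199), -1.70 for TGM1 (adjusted p = 5.28e-05) and -1.96 for SERPINB13 (adjusted p = 0.000197) on the log2 scale. Without the block the adjusted p of these differences was 0.175, 0.170 and 0.330. Against FaDu it was -1.20 for TGM1 (blocked adjusted p = 0.000356), -2.01 for SERPINB13 (9.93e-05) and -0.88 for CERS3 (0.00253). The adjusted p without the block was 0.370, 0.390 and 0.440. IVL stood at 4.71 to 25.7 normalized counts in untreated FaDu, and its difference from FaDu did not pass in either fit.

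Untreated cells of the 3 lines differed in which members they expressed. Of the 29 tested members, 12 were higher and 6 lower in Detroit 562 than in FaDu, 10 higher and 11 lower in Detroit 562 than in SCC-9, and 7 higher and 15 lower in FaDu than in SCC-9. Of all genes tested, 61% (31.2% higher and 29.8% lower), 65.4% (31.4% and 33.9%) and 64.2% (30.7% and 33.5%) were called in these comparisons, so most genes differed between the lines. Of the members, 9 would not have passed the count filter without 1 of the lines (SPRR1A, SPRR3, CLCA4, PSAPL1, FLG, CALML5, SPRR2D, TGM5 and SERPINB4), and since such a member is bound to differ, these counts are a description. The median log2 difference of the members was -0.31, -0.08 and -1.14 (-1.05 in the last with genes at 0 counts set to their bound or left out), against -0.01, -0.03 and -0.02 over all genes tested.

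Levels of different genes are set side by side per kilobase of annotated exon, which is approximate because reads in introns were counted too, most of all for genes with long introns such as SCEL. On this scale the highest members in untreated Detroit 562 were CST6 with 3600 ± 393 normalized counts per kb (SD, n = 3), SPRR1B with 1675 ± 393, SCEL with 1108 ± 184, CSTA with 819.5 ± 229.8 and SPRR3 with 453 ± 113. In FaDu they were CSTA with 824 ± 327, DMKN with 505 ± 74.99, TGM1 with 279 ± 108, CST6 with 275 ± 84.9 and LYPD3 with 269.7 ± 44.99. In SCC-9 they were CSTA with 792 ± 43.1, CST6 with 539.7 ± 88.7, LYPD3 with 404 ± 68.6, DMKN with 368 ± 8.84 and CLCA2 with 333 ± 59.2. CSTA and CST6 were thus among the 5 highest in each line, and the libraries of neighbouring members in these orders overlap in part. CSTA was the member whose level differed least between the lines, with normalized counts of 1119 ± 314, 1126 ± 447 and 1082 ± 58.8 (SD, n = 3) in Detroit 562, FaDu and SCC-9 and log2 differences between -0.01 and 0.06. None of these differences passed the test.

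Detroit 562 was highest in SPRR1A, SPRR1B, SPRR3, SCEL, CLCA4, CST6 and PSAPL1. SCEL had 4121 to 5547 normalized counts in Detroit 562, 180 to 197 in FaDu and 221 to 261 in SCC-9 (24.7- and 19.5-fold, adjusted p = 9.88e-12 and 1.38e-11). SPRR1B had 815 to 1297, 13.3 to 20.7 and 61.4 to 154 in the same order, and SPRR1A had 114 to 154, 4.71 to 6.66 and 0.959 to 3.07. SPRR3 had 480.1 to 803 in Detroit 562 and at most 1.88 and 5.72 in the other lines, and CLCA4 had 434 to 499.9 in Detroit 562 and at most 2.01 and 3.07. CST6 was 13.1- and 6.67-fold higher in Detroit 562 than in FaDu and SCC-9. SCEL, SPRR1B and CST6, which had more than 10 counts in every library, were called in both comparisons of Detroit 562 without overlap, whereas SPRR1A, SPRR3, CLCA4 and PSAPL1 passed the count filter only with Detroit 562 and their levels are a description. PSAPL1 was at 0 counts in every untreated FaDu library and at 2 counts or fewer in SCC-9, which puts Detroit 562 at least 102-fold above FaDu (floor of 3 counts over the group).

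IVL was high in Detroit 562 (512 to 884 normalized counts) and SCC-9 (412 to 707) and low in FaDu (4.71 to 25.7). Its log2 difference was 5.83 ± 0.50 (SE) for Detroit 562 against FaDu (adjusted p = 2.97e-09), -5.34 ± 0.50 for FaDu against SCC-9 (8.36e-09) and 0.49 ± 0.30 for Detroit 562 against SCC-9 (0.150). Detroit 562 and SCC-9 overlapped. SPRR2A was likewise lowest in FaDu, with 25.9 to 27.4 in Detroit 562, 27.6 to 33.7 in SCC-9 and 0 counts in every untreated FaDu library. Detroit 562 and SCC-9 were thus at least 27.4- and 31.4-fold above FaDu in SPRR2A.

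FaDu stood above SCC-9 in TGM1, CERS3 and SERPINB13, but TGM5, the other transglutaminase tested, had 1.01 to 2.82 normalized counts in FaDu and 6.71 to 16.4 in SCC-9. TGM1 had 593 to 1375 normalized counts in FaDu, 419 to 906 in Detroit 562 and 119.9 to 198 in SCC-9, and CERS3 had 290.4 to 343, 150.1 to 312 and 2.88 to 10.2. FaDu and Detroit 562 overlapped in both, and both were above SCC-9 (TGM1 6.39-fold for FaDu, adjusted p = 6.27e-06, and CERS3 42.7-fold, adjusted p = 4.63e-09). SERPINB13 showed the same order, with FaDu 5.05-fold and Detroit 562 4.98-fold above SCC-9 (adjusted p = 0.00339 and 0.00350). The TGM1 difference between Detroit 562 and FaDu was not called (adjusted p = 0.141), but was with the replicate number as a block shared by the lines (log2 difference -0.56, adjusted p = 0.0615), where 61.6% of all genes tested were called. It was also called without Detroit 562 control library 1 (adjusted p = 0.0748), without FaDu control library 3 (0.031) and without replicate 3 in every group (0.0199). CALML3, FLG and DMKN were also highest in FaDu. DMKN had 3400 to 4403 normalized counts in FaDu, 2288 to 2943 in Detroit 562 and 2668 to 2798 in SCC-9. The DMKN call against SCC-9 was lost without FaDu control library 3. CALML3 had 74.3 to 122 normalized counts in FaDu and at most 29.3 in the other lines. FLG, at 0 counts in every untreated Detroit 562 library, was at least 32.5-fold higher in FaDu. FLG passed the count filter only with FaDu and TGM5 only with SCC-9, so their levels are a description.

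SCC-9 was highest in CLCA2, SBSN, SERPINB3, SERPINB4, A2ML1, CNFN, SPRR2D and LYPD3. LYPD3 had 840 to 1176 normalized counts in SCC-9, 537 to 734 in FaDu and 486 to 534 in Detroit 562. CLCA2 had 1189 to 1708 normalized counts in SCC-9, 99.8 to 234 in FaDu and 45.3 to 148 in Detroit 562 (9.52- and 14.1-fold, adjusted p = 5.34e-06 and 1.25e-06). SBSN had 35.5 to 83.8 in SCC-9, 5.03 to 15.1 in FaDu and 1 count in the 3 Detroit 562 libraries. SERPINB3 had 67.1 to 184, 7.53 to 42.3 and 7.56 to 17.4, and A2ML1 had 51.8 to 94.0, 18.8 to 31.4 and 7.62 to 11.3. SCC-9 was apart from both other lines in each of these. SERPINB4 was called in both comparisons of SCC-9 but overlapped with FaDu, where 1 library had 28.2 and the others 3.81 and 2.82. SERPINB4 and SPRR2D passed the count filter only with SCC-9, so their levels are a description.

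**Figure D4:**
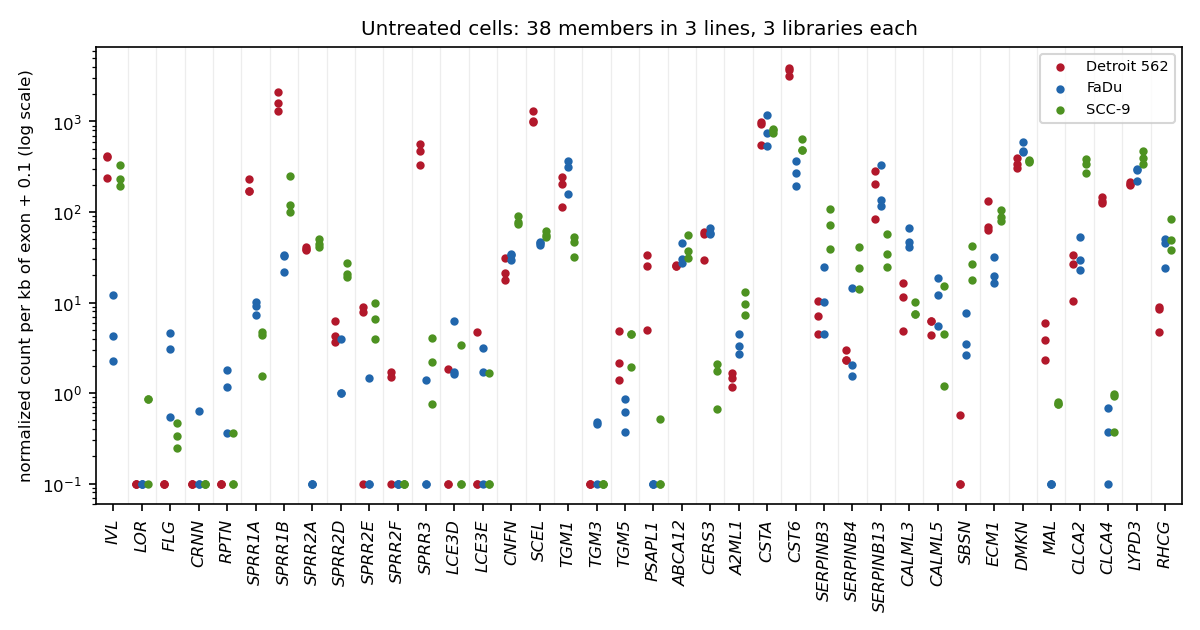
Normalized counts per kilobase of exon plus 0.1 on a log axis for all 38 members (x axis, ordered by role) in untreated cells, with 1 point per library and a colour per line. Detroit 562 points lie above the rest for SPRR1A, SPRR1B, SPRR3, SCEL, CLCA4 and CST6, and FaDu points lie lowest for IVL and SPRR2A, while points at 0.1 are libraries with 0 counts.

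In Detroit 562 the members varied more between replicate libraries than most genes. Among genes with a mean of at least 50 normalized counts over all 18 libraries, the median SD on the log2 scale over 3 libraries was 0.378 for 17 members and 0.110 for 13158 genes in Detroit 562 controls, and 0.343 and 0.139 in Detroit 562 with HGF. It was 0.488 and 0.119 in FaDu controls, 0.555 and 0.142 in FaDu with HGF, 0.396 and 0.0805 in SCC-9 controls, and 0.297 and 0.0800 in SCC-9 with HGF. The same 17 members enter every group, and some have few counts outside Detroit 562, where the spread of low counts enters the SD. In FaDu controls IVL, SPRR1A, SPRR1B, SPRR3 and CLCA4 averaged 13.2, 5.80, 18.1, 0.627 and 0.989 normalized counts, and in SCC-9 controls SPRR1A, SPRR3, CLCA4 and CERS3 averaged 2.29, 3.25, 2.30 and 7.22. In Detroit 562 controls RHCG, with 18.8, was the only one under 50. Libraries of the same number deviated together: in Detroit 562 the deviations of the members from the group means correlated at 0.602, 0.628 and 0.688 between control and HGF libraries of the same number, across the 29 tested members, which are not independent. In FaDu these values were 0.0524, 0.571 and 0.643, and in SCC-9 0.172, 0.432 and -0.0853.

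**Figure D5:**
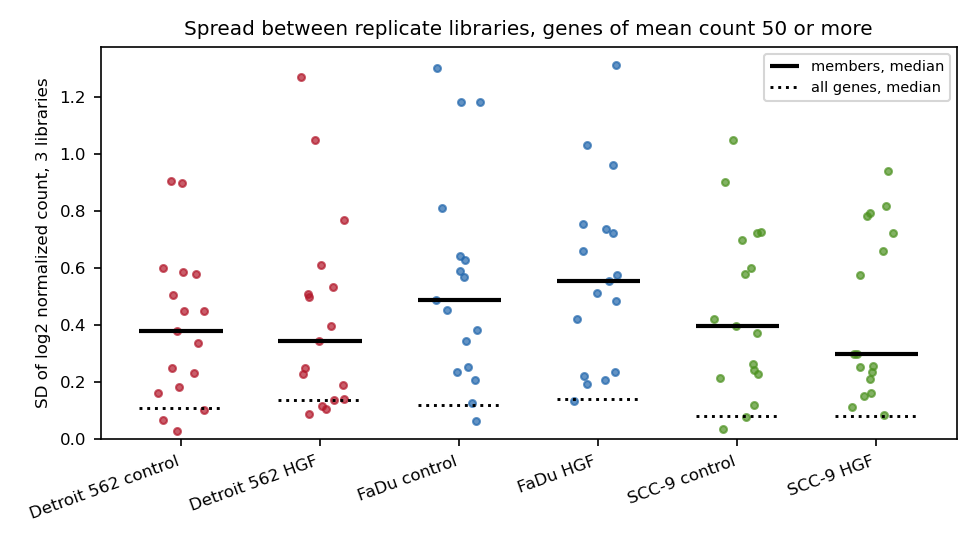
Standard deviation of the log2 normalized count over the 3 libraries of each group (y axis) for the 17 members with a mean of at least 50 over all libraries (points), with solid lines for their median and dotted lines for the median of all 13158 such genes. The solid line lies above the dotted line in each group, at 0.378 against 0.110 in Detroit 562 controls.

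Genes of the same biology outside the 38 were counted from 3 further lists. These lists were chosen with earlier results of these data known, so their counts are a description and no independent support. Of 29 tested among 39 other envelope and barrier genes, 6 fell and 1 rose upon HGF in Detroit 562. Of all genes tested, 11.7% were called down and 6.16% up. The median of the list was -0.36 on the log2 scale, against -0.01 over all genes tested. The largest falls were in CLIC3, a chloride channel protein (-2.28), LY6D, a surface protein of keratinocytes (-1.54), and SPINK5, the inhibitor of epidermal kallikreins (-1.39), and the rise was in ALOXE3, a lipoxygenase of the skin barrier (1.12). Of 29 other genes of the epidermal differentiation complex only 3 had enough counts, and none was called.

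Of 15 regulators of squamous differentiation, 14 were tested, of which 8 fell and 1 rose in Detroit 562 (median log2 fold change -0.43). The shares over all genes tested were 11.7% down and 6.16% up. Among the falls were ZNF750 (-2.15, adjusted p = 0.00386) and GRHL3 (-1.66, adjusted p = 0.00197), transcription factors of terminal keratinocyte differentiation, and the rise was in HOPX (0.75, adjusted p = 0.0103). In FaDu and SCC-9 none of these lists had a called gene without the block. The blocked fit called 5 regulators down in FaDu, with the largest falls in GRHL3, ELF3 and ZNF750, and 3 in SCC-9 (ELF3, OVOL1 and CEBPA), and 3 and 1 of the other envelope and barrier genes, CLIC3 in both lines and LY6D and PADI3 in FaDu. Of the other genes of the complex it called TCHHL1 down in FaDu and PGLYRP4 down in SCC-9. Over all genes tested, the blocked fit called 5.6% in FaDu (3.6% down) and 1.97% in SCC-9.

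All 8 markers of squamous epithelium were above 10 normalized counts in every library, and their sum ranged from 134500 to 182500 in Detroit 562 controls and from 94420 to 142900 with HGF. KRT5 and CDH1 of this list fell in Detroit 562 (log2 fold change -0.90 and -0.49). Of 7 fibroblast markers 2 averaged above 10 in Detroit 562, with sums of 1196 to 2179 in controls and 601 to 1106 with HGF, and COL1A1 and COL1A2 fell. Of 6 leukocyte markers 1, CD68, averaged above 10, and the sum of the list was 817 to 1629 in controls and 1499 to 2256 with HGF, with CD68 called up (0.66). The sum of 4 endothelial markers was 48.6 to 120.0 in controls and 25.6 to 46.6 with HGF. PDGFRB was at 0 in each Detroit 562 library, DCN and COL3A1 reached at most 0.945 and PTPRC at most 3.24. VWF of the endothelial list fell (-2.12). The part of these lists in the members' changes was not tested.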

How the data were processed

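RNA was sequenced in 18 libraries from 3 lines. Per the labels and the study's methods, the authors called bases with bcl2fastq 2.20.0.422, trimmed with cutadapt (1.16 per the labels, with a later version also named in the methods), aligned with STAR 2.5.2b to GRCh38.p12 and counted reads over GENCODE 28 genes with bedtools by strand, over the whole gene extent and so with introns. The raw counts they deposited were used here, and their DESeq2 1.22.1 comparisons were not.

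Members were the rows of the table whose symbol is in the list of 38, and every one was found. Members and lists were chosen with earlier results of these data known. Genes were filtered with filterByExpr (minimum count 10, total 15), scaled by TMM and fitted with 6 group means in edgeR 4.0.16 (R 4.3.3, limma 3.58.1), with p-values of the quasi-likelihood test adjusted over all 15475 genes tested. Scripts were tested on simulated data. An exact permutation test of 3 against 3 libraries cannot go below p = 0.1 and was not used for calls. Alternatives were the replicate block, DESeq2 1.42.0, other filters, thresholds and scalings, and leaving out libraries. All members may be named, and of the other lists the 3 largest rises and falls among called genes. Of the genes this rule names, 1 is not reported here.

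Libraries of the same number deviated together. On log2 CPM with a prior count of 2, their deviations from the group means correlated, control with HGF, as follows. The Detroit 562 values were 0.295, 0.161 and 0.454. Those of FaDu were 0.376, 0.441 and 0.563. Those of SCC-9 were 0.332, 0.203 and 0.286, so same-numbered libraries were taken as pairs. On log2 normalized counts plus 0.5 the lowest value was 0.0785. Exon lengths came from GENCODE 44. Counts do not hold molecular identifiers, so depth limits the precision of genes with few counts, and a fitted fold change of a gene at or near 0 counts depends on the prior count.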

Additional observations from a re-analysis of the deposited data

Results flagged for a closer look

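In the blocked fit the HGF response differed between lines for several members, by the interaction of line and treatment in edgeR. Of the 29 tested members, 5 passed for Detroit 562 against FaDu and 11 for Detroit 562 against SCC-9. Of all genes tested, 19.1% and 26.9% passed, so such differences were common and not particular to the members. Detroit 562 minus FaDu gave log2 differences of -1.20 for TGM1, -2.01 for SERPINB13, -0.88 for CERS3 and 0.47 for SCEL. The fitted value for SPRR2D was 4.79, which depends on the prior count and is no estimate of a fold, since FaDu had at most 4 counts per library and 0 in every HGF library. SERPINB13 and TGM1 had the smallest adjusted p of these 5 (9.93e-05 and 0.000356).

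Detroit 562 minus SCC-9 gave -1.41 for IVL, -1.70 for TGM1, -1.68 for A2ML1, -1.96 for SERPINB13, -1.15 for CERS3, -0.75 for CLCA2, -0.62 for ABCA12 and -0.34 for CSTA. It gave 0.61 for ECM1, 0.49 for CST6 and 0.23 for DMKN. None of these differences passed without the block.

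Every pair of libraries moved up in some lines and down in another for a pair of genes, and these differences were not tested as such. The pair nearest to 0 is given for each line, as a difference of log2 normalized count plus 0.5. For SPRR2D it was 0.56 in Detroit 562 and 0.40 in SCC-9, against -1.53 in FaDu. For TGM5 it was 0.40 in SCC-9 and -1.18 in FaDu. Both genes had few counts in FaDu, where these values depend on the added 0.5.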

How the results depend on the processing

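The replicate block raised the members called upon HGF in FaDu from 0 to 8, and those with a different response from 0 to 5 (Detroit 562 against FaDu) and from 0 to 11 (Detroit 562 against SCC-9). In the same order, the block raised the share over all genes tested from 0.0258% to 5.6%, from 0.239% to 19.1% and from 0.924% to 26.9%. Apart from the calls named in the text, it changed no other call of a member. For different responses, DESeq2 with its fold change prior gave 1 and 2 members in these comparisons, DESeq2 without it 1 against SCC-9, and a fit of only the lines compared 1 against SCC-9. Without replicate 3 in every group, chosen after seeing the data, the counts were 1 and 3. The causes were not tested. Leaving out 1 library gave 7 to 12 members called upon HGF in Detroit 562 and 0 to 0 in FaDu and in SCC-9. It gave 0 to 1, 0 to 2 and 0 to 0 different responses, with the 1 and the 2 both without Detroit 562 control replicate 3, and 17 to 21, 20 to 21 and 21 to 22 members called between untreated lines. The replicate block gave 13 called upon HGF in Detroit 562, where 21.5% of all genes tested were called, and the other settings gave 7 to 10. Over 174 gene results and 2541 alternative values, 0 called values reversed and 100 uncalled values changed sign. Depth limits the members with few counts, above all A2ML1, FLG, SBSN, SPRR2A and SPRR2D.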
